A study of Mus musculus with 12 samples.

Results

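In livers of mice on a high-fat diet, 6083 regions of accessible chromatin carried a FAIRE-seq peak in both surgical groups, Sham and vertical sleeve gastrectomy (VSG), and none in Control livers. They were chosen from 59246 regions, made by merging the peak lists of the 3 groups, as those that overlapped a Sham peak and a VSG peak by at least 1 bp and no Control peak. The presence of a peak and its height therefore served to choose them and are given here as a description, without a test. In FAIRE-seq, chromatin is fixed with formaldehyde and DNA that is not held by nucleosomes is extracted and sequenced. RNA-seq was made from the same livers. All mice were C57BL/6J wild-type males, with 2 livers per group. Control mice stayed on standard chow for 28 weeks and had no surgery. Sham and VSG mice received a diet with 60 kcal% of fat from 8 weeks of age, for 14 weeks before and 14 weeks after the operation, with a liquid diet for 4 days in between. About 80% of the stomach was resected in VSG mice, whereas the stomach of Sham mice was only isolated and pressed. Both groups that define the regions thus shared the diet, an operation and the liquid diet, and these cannot be told apart in a comparison with Control. Whole liver was used, in which fewer cells of a type and less RNA per cell cannot be told apart.

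Accessible regions outside promoters are mostly enhancers and insulators, which transcription factors hold open. In hepatocytes, forkhead (FOXA) and C/EBP factors and the nuclear receptor HNF4A occupy many of them, AP-1 is induced by stress and growth signals, and CTCF marks insulators and domain borders that are largely shared between tissues. PPARG and its partner RXR bind direct repeats with a single base between (DR1), and PPARG is known to rise in fatty liver together with lipid uptake and lipid droplet genes such as Cd36 and Cidea.

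Sequences of 7 regions are shown from mm9 (NCBIM37), plus strand, because a motif match or a gene described below lies there. Each is limited to 300 bp and to a stretch free of annotated exons, and capitals mark matches to the motif letters given below. Those at Cd36, Ly6d and Pparg were picked after the RNA values were seen. Each of the 7 whole regions had 1 copy in the genome at 95% identity over 80% of its length.

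Cd36 (promoter, chr5:17355611-17355759): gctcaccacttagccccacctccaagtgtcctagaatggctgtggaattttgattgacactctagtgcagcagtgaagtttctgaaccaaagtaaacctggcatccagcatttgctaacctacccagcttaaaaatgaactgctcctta
Ly6d (promoter, chr15:74593998-74594244): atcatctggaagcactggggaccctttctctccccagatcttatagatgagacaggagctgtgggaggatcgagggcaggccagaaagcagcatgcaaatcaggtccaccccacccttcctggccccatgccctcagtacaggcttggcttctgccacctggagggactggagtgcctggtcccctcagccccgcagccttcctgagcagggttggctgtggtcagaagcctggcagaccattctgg
Pparg (promoter, chr6:115371752-115371987): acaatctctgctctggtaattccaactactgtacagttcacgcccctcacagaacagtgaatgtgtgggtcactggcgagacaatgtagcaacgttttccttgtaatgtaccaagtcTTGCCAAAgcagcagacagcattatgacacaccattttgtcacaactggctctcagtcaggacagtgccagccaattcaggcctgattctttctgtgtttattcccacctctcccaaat
Anxa2 (promoter, chr9:69301127-69301426): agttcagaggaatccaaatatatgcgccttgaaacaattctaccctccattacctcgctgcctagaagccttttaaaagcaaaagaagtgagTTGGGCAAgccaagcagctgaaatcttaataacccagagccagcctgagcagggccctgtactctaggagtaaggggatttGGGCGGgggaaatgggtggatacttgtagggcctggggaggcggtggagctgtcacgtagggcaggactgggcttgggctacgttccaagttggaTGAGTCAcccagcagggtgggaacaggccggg
Slc5a6 (beside exons, chr5:31339592-31339741): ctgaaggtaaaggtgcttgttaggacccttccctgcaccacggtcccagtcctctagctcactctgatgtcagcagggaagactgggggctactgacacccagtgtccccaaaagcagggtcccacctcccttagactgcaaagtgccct
Kdm5b (intron, chr1:136462053-136462322): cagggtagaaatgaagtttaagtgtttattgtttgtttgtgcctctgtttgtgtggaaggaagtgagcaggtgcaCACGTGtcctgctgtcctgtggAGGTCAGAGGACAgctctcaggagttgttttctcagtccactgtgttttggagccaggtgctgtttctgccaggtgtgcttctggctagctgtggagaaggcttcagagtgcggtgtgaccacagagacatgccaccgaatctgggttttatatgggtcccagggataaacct
Mx1 (promoter, chr16:97685064-97685301): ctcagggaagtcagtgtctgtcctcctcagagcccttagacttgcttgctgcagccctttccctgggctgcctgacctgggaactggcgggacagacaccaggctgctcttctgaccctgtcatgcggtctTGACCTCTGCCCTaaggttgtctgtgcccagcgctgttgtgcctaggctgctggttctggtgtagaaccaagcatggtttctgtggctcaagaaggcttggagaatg

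The capitals are a C/EBP match at Pparg, a C/EBP, a GC box and an AP-1 match at Anxa2, and a DR1 match at Kdm5b and Mx1, with an E-box (CACGTG) as well at Kdm5b. The stretches at Cd36, Ly6d and Slc5a6 held no match to the motifs marked.

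The 3 peak lists differed in size, with 42204 Control, 52881 Sham and 44539 VSG peaks, and the lowest F-seq signal retained was 0.137 in the Control, 0.193 in the Sham and 0.156 in the VSG list. A list was made per group from peaks reproducible between its 2 mice, so these lists give no value per mouse for a region, and the FAIRE libraries of single mice were not analysed here. Of the other regions, 32716 were in all 3 lists, 2998 in the Control and Sham lists, 1878 in the Control and VSG lists, 3149 in the Control list alone, 10160 in the Sham list alone and 2262 in the VSG list alone. Depth per library was not given in the files. In the RNA table, transcripts with an FPKM above 0 numbered 16039 to 17222 per mouse. The liver label was matched by hepatocyte transcripts in every mouse, with Apoa1 between 6334 and 11117 FPKM and Ttr between 1011 and 4143. Hepatocyte markers were not all level between groups. Of the 6 tested, 1 was called lower in the high-fat mice, where 0.215% of all genes were. Their median log2 difference was -0.78, with -1.31 for Sham and -0.375 for VSG singly. Tat was at 1376 and 1477 FPKM in Control and 188 to 283 in high-fat mice, and it was 1 of the 6. The sum of the 6 was 20968 and 17663 FPKM in Control, 18578 and 10549 in Sham and 19927 and 16983 in VSG mice. For 1 of the 6 all 4 high-fat mice lay below both Control mice, as for 9.23% of all genes. Lymphocyte markers did not reach an FPKM of 1 in 2 mice for any of 10 genes.

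The regions open in both high-fat groups were mostly below the median peak in signal, more so in the VSG list. Ranked by signal within each list, their median percentile was 39.3 in the Sham list (interquartile range 22.7 to 54.8) and 22.2 in the VSG list (10.8 to 35.7). In the Sham list 33.0% ranked above the median peak, compared to 7.89% in the VSG list, and 76.8% ranked higher in the Sham list than in the VSG list, compared to 58.8% of the regions in all 3 lists. The median Sham percentile was 67.8 in regions of all 3 lists, 24.7 in those of the Control and Sham lists and 17.7 in Sham peaks alone. In the VSG list, regions of all 3 lists had a median percentile of 62.3, also lower than in the Sham list. Percentiles are ranks within lists of 52881 Sham and 44539 VSG peaks, and Sham peaks alone enter the former ranking. They therefore do not measure a difference in accessibility between Sham and VSG livers. The Spearman correlation between both percentiles across the 6083 regions was 0.384, a description over regions that share their libraries. In position, 99.5% consisted of 1 Sham peak and 1 VSG peak, the summits lay a median of 9 bp apart, and 95.2% lay within 50 bp of each other. The rule asks for overlap of these peaks, whose median lengths were 285 bp (Sham) and 235 bp (VSG), so near summits are in part set by it. Summit distances were not measured in other classes.

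**Figure D1:**
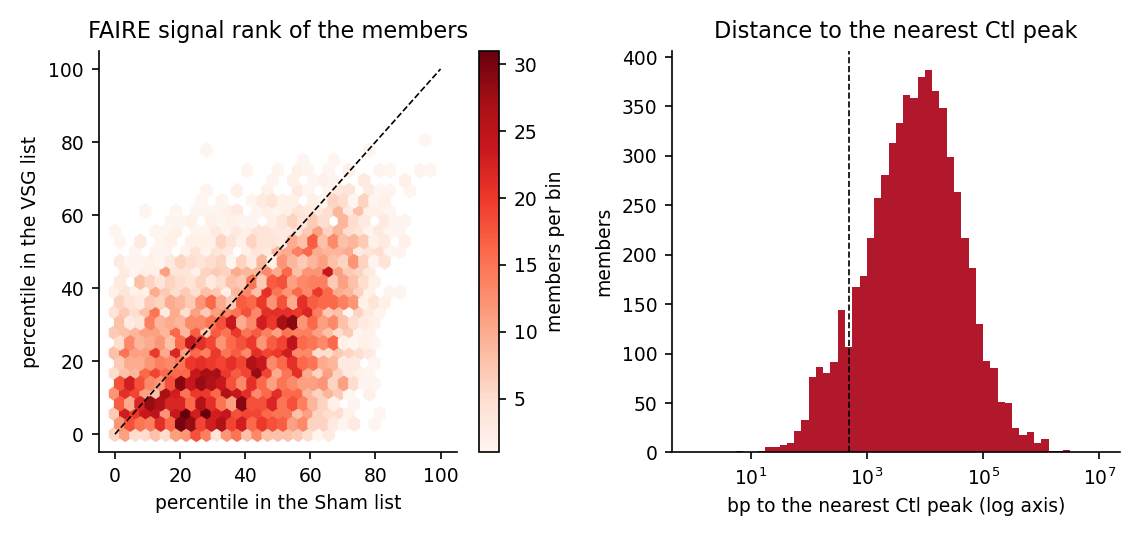
Left, percentile of the FAIRE signal in the Sham list (x) and in the VSG list (y) for the 6083 regions, with shading for regions per bin and a dashed line of equal percentile. Most lie under the line, with medians of 39.3 and 22.2. Right, distance in bp to the nearest Control peak on a log axis, with a dashed line at 500 bp, under which 10.2% of the regions lie.

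Regions were ordered by the lower of their percentiles in the Sham and VSG lists. The first in this order lay in an exon of Slc5a6, a vitamin transporter gene, at chr5:31338907-31339741, with the authors' signal of 1.18 in the Sham and 0.62 in the VSG list (percentiles 94.9 and 81.7). It was followed by intergenic regions nearest to Prex1 (chr2:166234340-166234654, signals 0.717 and 0.538), Smyd2 (chr1:191817170-191817476, 0.784 and 0.49) and 0610040F04Rik (chr6:108633191-108633465, 1.08 and 0.488). An intronic region nearest to Fam92b (chr8:122737770-122738180) had signals of 0.645 and 0.483. The sixth was the promoter region of Anxa2, which encodes a membrane-binding annexin, at chr9:69300921-69301635, with signals of 0.623 and 0.486. It was the only promoter among these 6, and its centre lay 149 bp from a transcription start site (TSS).

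The nearest Control peak was a median of 6921 bp away (interquartile range 1849 to 22458 bp), and 623 regions (10.2%) had one within 500 bp. Just inside the rule, regions nearest to Srrm1, Gas7 and Dpys missed a Control peak by 6, 17 and 19 bp. Just outside it, among regions with 1 peak per list, those nearest to Vmn1r157, Rassf5 and Mrs2 overlapped a Control peak by 124, 128 and 133 bp, with Control signals of 0.142, 0.141 and 0.152, close to the lowest value of that list. A region without a Control peak is thus not a region without Control signal, which the peak lists do not give below their lowest value.

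Few of the regions were promoters. Of the 6083, 9.62% (95% Wilson interval 8.90 to 10.4) lay within 1 kb of a TSS, 4.01% in other exons, 45.1% in introns and 41.2% between genes, and the median distance to a TSS was 13741 bp. The promoter share was 27.3% in the union, 36.9% in regions of all 3 lists and 45.6% (43.4 to 47.9) in those of the Control and VSG lists. It was 11.9% (10.8 to 13.2) in those of the Control and Sham lists and 7.16% (6.67 to 7.67) in Sham peaks alone, whereas VSG peaks alone had 32.2% (30.3 to 34.1). Intervals here cover counting error over regions only, and regions of a list are not replicates of a condition.

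CpG content followed the same order. A window of 300 bp with at least 50% GC and an observed over expected CpG ratio of at least 0.6, the usual mark of a CpG island, was found at 2.56% (2.20 to 2.99) of the regions, compared to 3.67% of the Control and Sham regions, 37.9% of the Control and VSG regions, 22.5% of VSG peaks alone and 28.8% of those in all 3 lists. Sham peaks alone had a lower share, 1.04% (0.863 to 1.26). At promoters, 17.6% of the 585 regions open in both high-fat groups were CpG-rich (14.7 to 20.9), compared to 60.4% of 16198 promoter regions in the union. Promoter regions of the Control and Sham lists had nearly the same share, 18.7% (15.0 to 23.1), and those of Sham peaks alone 6.74% (5.14 to 8.80). Their median length was 296 bp (interquartile range 245 to 387), against 352 bp in the union and 281 bp in the Control and Sham regions. Of the 6083, 18.7% had another such region within 10 kb. Within their own class this held for 16.0% of the Control and Sham regions, 25.7% of Sham peaks alone and 63.4% of regions in all 3 lists. The 6083 regions were spread over the autosomes, with 1.13% on the X chromosome, compared to 1.09% of the union.

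**Figure D2:**
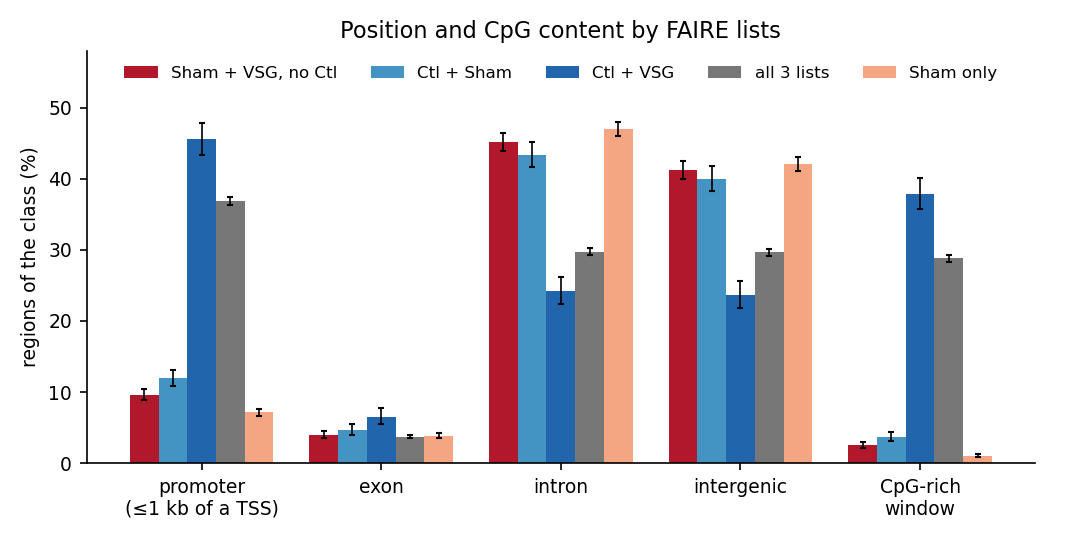
Share of regions (%, y) at promoters, exons, introns, between genes and with a CpG-rich window, for 5 classes of region by the lists that hold a peak. Bars start at 0 and error bars are 95% Wilson intervals. Regions open in Sham and VSG but not Control had a promoter share of 9.62%, against 45.6% for Control and VSG.

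Motif letters were searched on both strands in the central 300 bp of every region, with N for any base. For regions over 1 kb from a TSS, 5498 of the 6083, the CTCF letters (CCA, any 2 bases, then AGGNGGC) differed widely between classes. They were found in 1.56% (1.27 to 1.93) of the regions open in both high-fat groups, compared to 9.20% (8.16 to 10.4) of 2640 Control and Sham regions, 13.1% (11.2 to 15.3) of 1021 Control and VSG regions and 5.51% (5.21 to 5.83) of 20645 regions in all 3 lists. The classes without a Control peak were all low, with 3.22% (2.88 to 3.599) of Sham peaks alone and 2.41% (1.75 to 3.31) of VSG peaks alone, the latter overlapping the regions open in both high-fat groups. Median GC content was 49.0% in the latter and 50.3% in the Control and Sham regions.

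CTCF matches were rarer in the highest than in the lowest band of Sham signal in all 4 classes that hold a Sham peak, so classes were also compared within bands of Sham percentile. In the lowest band, up to percentile 20, 2.56% (1.78 to 3.67) of 1095 distal regions open in both high-fat groups had a match, compared to 10.9% (9.17 to 13.0) of 1034 Control and Sham regions and 13.1% (11.5 to 15.0) of 1447 regions in all 3 lists. The shares from 20 to 40 were 2.05%, 9.82% and 10.6%, and those from 40 to 60 were 1.05%, 5.85% and 7.53%. Above 60 the shares were 0.608%, 1.28% and 2.27%, with only 78 Control and Sham regions and overlapping intervals for these and the regions open in both high-fat groups. In each of the 3 lower bands the intervals did not overlap. Sham peaks alone had 3.26% (2.81 to 3.78), 3.83% (3.20 to 4.57), 1.64% (1.04 to 2.58) and 0.781%, and their intervals overlapped those of the regions open in both high-fat groups in every band but that from 20 to 40. Median lengths of distal regions were 293 bp in the regions open in both high-fat groups, 276 bp in the Control and Sham regions and 407 bp in those of all 3 lists, whose part in the result was not tested.

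**Figure D3:**
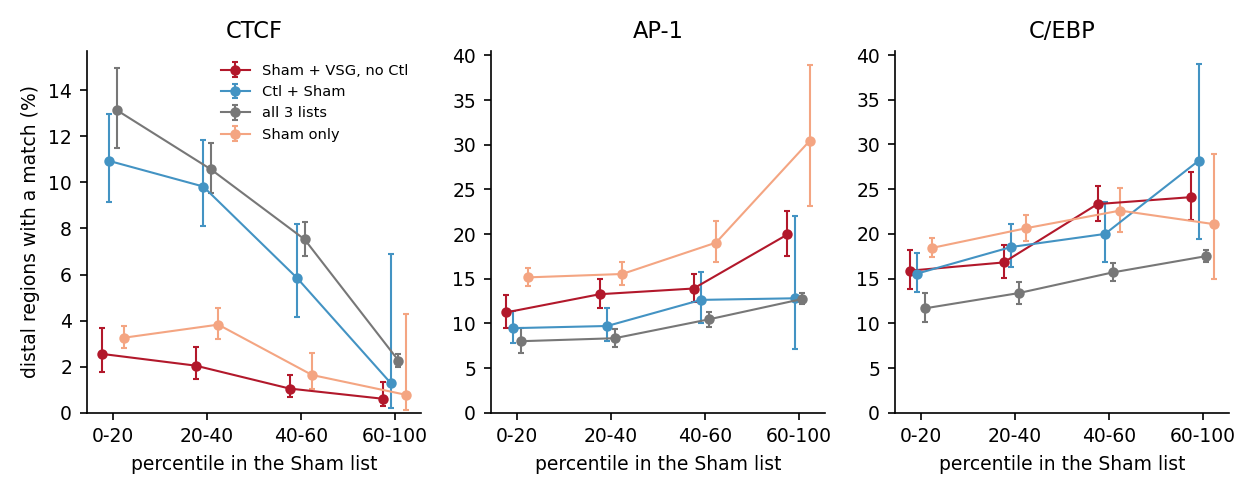
Share of distal regions (%, y) with a match to CTCF, AP-1 or C/EBP letters in bands of signal percentile in the Sham list (x), for 4 classes of region; error bars are 95% Wilson intervals. For CTCF, the regions open in Sham and VSG but not Control run from 2.56% in the lowest band to 0.608% in the highest, under Control and Sham regions at 10.9% in the lowest.

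AP-1 and forkhead letters had higher shares than in the classes with a Control peak. AP-1 (TGANTCA) matched in 14.3% (13.4 to 15.2) of the 5498 distal regions, compared to 10.3% (9.20 to 11.5) of the Control and Sham regions, 6.86% (5.46 to 8.57) of the Control and VSG regions and 11.2% (10.8 to 11.7) of the regions in all 3 lists. In Sham peaks alone the share was 15.9% (15.2 to 16.7). By Sham percentile band, the AP-1 share of the regions open in both high-fat groups was 11.2%, 13.3%, 13.9% and 19.96% (17.6 to 22.6) from the lowest to the highest band. The Control and Sham regions had 9.48%, 9.72%, 12.6% and 12.8%, and the intervals of both classes overlapped in every band. The regions in all 3 lists had 8.02%, 8.35%, 10.5% and 12.7%, with intervals below those of the regions open in both high-fat groups in the 3 upper bands. Forkhead letters (TGTTTAC) matched in 7.95% (7.26 to 8.69), compared to 5.08% (4.30 to 5.98) of the Control and Sham regions and 6.08% of those in all 3 lists, and Sham peaks alone had a like share of 7.76% (7.24 to 8.32). By Sham percentile band, forkhead shares were 7.12%, 6.89%, 7.98% and 10.5%, compared to 5.22%, 5.01%, 4.53% and 7.69% of the Control and Sham regions. Those intervals overlapped in every band but that from 40 to 60. The intervals of the regions in all 3 lists lay lower in every band. C/EBP letters (TTGCNNAA) matched in 20.1% (19.0 to 21.2), compared to 17.95% (16.5 to 19.5) and 16.1%, with overlapping intervals for the Control and Sham regions, and Sham peaks alone had 19.7% (18.9 to 20.5). Among factors of inflammation, the interferon response letters (GAAA repeated with 2 bases between) matched in 3.98% (3.50 to 4.53), against 66 of the 2640 Control and Sham regions (interval 1.97 to 3.17). Sham peaks alone had 3.70% and VSG peaks alone 4.04% (3.17 to 5.15). The NF-kB letters (GGGA, any base, then TTTCC) matched in 39 regions, or 0.709% (0.519 to 0.968), against 7 regions, or 0.265% (0.128 to 0.546), with overlapping intervals, and against 0.700% of Sham and 0.782% of VSG peaks alone. The STAT letters TTCNNNGAA went the other way, at 8.77% (8.05 to 9.54) against 11.1% (9.99 to 12.4) of the Control and Sham regions and 10.5% (9.89 to 11.1) of Sham peaks alone, and were at 8.65% in all 3 lists. GC boxes (GGGCGG) matched in 6.38% (5.77 to 7.06), against 7.39% (6.45 to 8.45) of the Control and Sham regions, with overlapping intervals, and 23.0% of the Control and VSG regions.

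**Figure D4:**
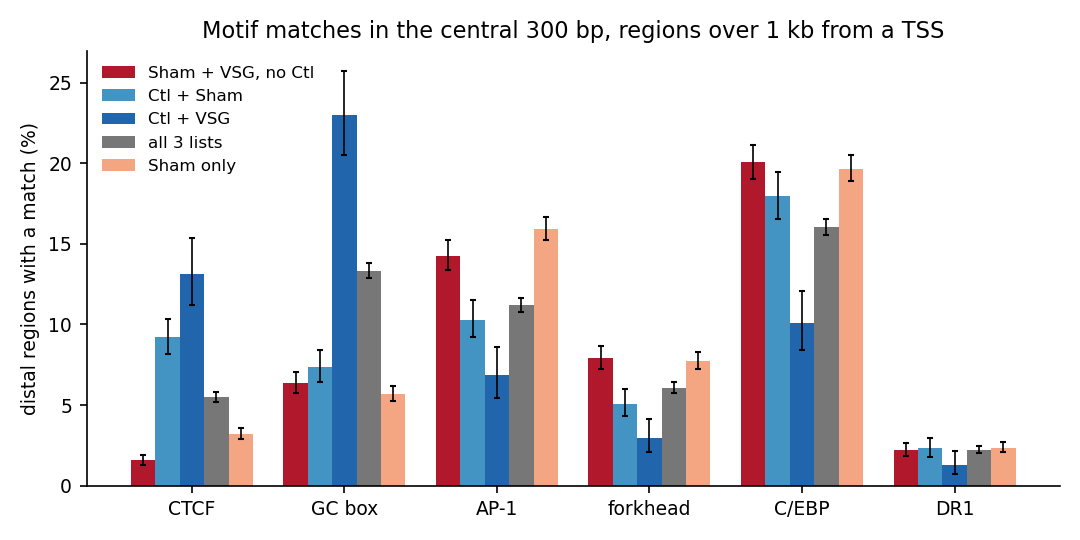
Share of regions over 1 kb from a TSS (%, y) with at least 1 match to each motif in the central 300 bp, for 5 classes of region; bars start at 0 and error bars are 95% Wilson intervals. CTCF letters were in 1.56% of the regions open in Sham and VSG but not Control and in 9.20% of Control and Sham regions, whereas DR1 letters were in 2.20% and 2.31%.

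The DR1 letters (AGGNCA repeated with 1 base between), which PPARG with RXR and HNF4A can bind, did not set the distal regions apart. They matched in 130 of the 6083 (2.14%, 1.80 to 2.53), compared to 1.74% (1.64 to 1.85) of the union, where promoters are more common. Outside promoters the share was 2.20% (1.85 to 2.62), compared to 2.15% (2.01 to 2.31) of all other distal regions and 2.31% of the Control and Sham regions. At promoters 9 of 585 matched (1.54%, 0.811 to 2.90), compared to 0.602% (0.492 to 0.736) of all other promoter regions and 1.93% (1.15 to 3.21) of promoter regions of Sham peaks alone. Regions with a DR1 match near a gene of the lists examined include those at Kdm5b, a histone demethylase gene (chr1:136462053-136462322, 5404 bp from a TSS), and at Mx1, an interferon-induced antiviral gene (chr16:97685064-97685301, 669 bp). Kdm5b RNA was 2.40 and 2.44 FPKM in Control, 2.95 and 3.58 in Sham and 0.5997 and 2.97 in VSG mice, and Mx1 did not exceed 0.284 FPKM in any of 6 mice.

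Few of the regions were on the authors' own lists of sites that differed between Sham and VSG, as were few regions in all. The list of sites higher in Sham than VSG overlapped 3 of them (0.0493%, 0.0168 to 0.145), compared to 99 of the union (0.167%), nearest to Arap3, Igsf10 (chr3:59205789-59206144) and Fryl (chr5:73521139-73521452), and the same 3 were on the list of reversible sites higher in Sham. Their percentiles were 75.7, 76.4 and 78.9 in the Sham list and 29.7, 17.5 and 2.47 in the VSG list. The reversible list held 61 regions of the union (0.103%). None of the 6083 overlapped the list higher in VSG or the reversible sites lower in Sham, which held 0.699% and 0.295% of the union. The reversible sites lower in Sham lay in 105 regions of all 3 lists and 70 of the Control and VSG lists. Since the rule asks for a Sham peak and no Control peak, their absence here follows largely from the rule and is no result. These lists rest on the same libraries as the peaks.

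To examine RNA of nearby genes, limma was fitted to log2(FPKM + 1), with FPKM summed per gene, over 9749 genes that reached 1 FPKM in 2 or more mice, so that a gene could enter through its high group alone. A region lay within 10 kb of a TSS for 2748 genes, of which 1706 were tested. In the mean of both high-fat groups compared to Control, 7 of these 1706 genes were higher (0.410%, Wilson interval 0.199 to 0.845) at an FDR of 10%, compared to 0.205% of all genes tested. Only 1 of them was lower (0.0586%), compared to 0.215% of all. The interval for higher genes reaches down to the background share. In either direction 0.421% of all genes were called. Of the higher genes, Spryd4, Atg7, Lifr and Bid were listed at 0 in both Control mice and entered through the high-fat mice alone. Among genes above 0 FPKM in all 6 mice, 3 of 1431 near a region were higher, compared to 6 of 8208 in the whole table. At an unadjusted p under 0.05, 164 of the 1706 genes were higher (9.61%, 8.30 to 11.1) and 68 lower (3.99%, 3.16 to 5.02), compared to 8.24% and 3.61% of all, the former just outside the interval. The higher share was 8.91% (7.83 to 10.1) near Sham peaks alone and 8.09% (6.60 to 9.88) near Control and Sham regions. Both intervals overlapped that of the 1706 genes. It was 7.84% (7.29 to 8.42) near regions with a peak in every list and 5.97% (4.65 to 7.64) near Control and VSG regions. For Sham compared to Control 4 genes were called, 2 in each direction, against 0.113% of all genes higher, 0.195% lower and 0.308% in either direction. For VSG compared to Control 3 were called, 2 higher and 1 lower, against 0.103%, 0.185% and 0.287%. With the replicate block 1 gene near a region was called in each of the 3 comparisons, higher in each. In the whole table the block left 9 calls for high-fat, 9 for Sham and 10 for VSG. The Sham and VSG counts also moved when single mice were left out. All 3 comparisons share the 2 Control mice. VSG compared to Sham gave 0 calls with limma among these genes, where 0.0513% of all genes were called. At an unadjusted p under 0.05, 50 were higher (2.93%) and 33 lower (1.93%), compared to 3.25% and 1.6% of all. The high-fat count was 0 without either Control mouse, when limma called no gene in the whole table, with 584 and 493 genes at an unadjusted p under 0.05. It was 2 without either VSG mouse, 6 without Sham mouse 1 and 19 of 1674 without Sham mouse 2, while the calls over the whole table were 19 and 22, 35, and 75 of 9518.

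Of genes with a region within 1 kb of a TSS, 3 were higher and 1 was lower in the high-fat groups, out of 362 tested. These are 0.829% (0.282 to 2.41) and 0.276% (0.0488 to 1.55), compared to 0.205% and 0.215% of all genes. At an unadjusted p under 0.05, 46 were higher (12.7%, 9.66 to 16.5) and 10 lower (2.76%, 1.51 to 5.01), compared to 8.24% and 3.61% of all. These intervals treat genes as independent, and most of these genes did not pass after adjustment. Of 14 alternative fits, the high-fat call was lost in 9 for Scd2, in 8 for Tmem98 and Bid, in 7 for Cd36 and Atg7, in 6 for Ly6d and Lifr and in 2 for Spryd4. Cd36, a fatty acid transporter of hepatocytes, adipocytes and macrophages, had a region 22 bp from an alternative TSS inside the gene (chr5:17355505-17355759, signals 0.572 in Sham and 0.311 in VSG), with the nearest Control peak 78533 bp away. Its RNA was 6.73 and 6.48 FPKM in Control, 22.5 and 23.3 in Sham and 20.3 and 25.2 in VSG mice. All 4 high-fat mice lay above both Control mice, with a log2 difference of 1.64 ± 0.18 (SE, adjusted p = 0.072, limma). Taken singly, neither group passed against Control (adjusted p = 0.118 for Sham and 0.131 for VSG, limma).

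Ly6d, a surface antigen of the Ly6 family, had a region 52 bp from its TSS (chr15:74593853-74594244, signals 0.345 and 0.178) and a further one 7278 bp away. A Control peak lay 386 bp from the promoter region. Ly6d RNA was 1.01 and 1.22 FPKM in Control, 82.5 and 148 in Sham and 67.1 and 23.1 in VSG mice. All 4 high-fat mice lay above both Control mice, at a log2 difference of 4.99 ± 0.50 (SE, adjusted p = 0.066, limma). Taken singly, Sham passed against Control (5.72 ± 0.58, adjusted p = 0.071, limma) and VSG did not (4.26 ± 0.58, adjusted p = 0.16, limma). The log2 difference of VSG to Sham was -1.46 ± 0.58 (SE), which did not pass (adjusted p = 0.941, limma).

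Lifr, the receptor of leukaemia inhibitory factor, had a region 128 bp from a TSS (chr15:7104063-7104386, signals 0.373 and 0.253). Lifr RNA was listed at 0 in both Control mice and at 7.08, 3.77, 7.04 and 7.45 FPKM in the high-fat mice (adjusted p = 0.060, limma). Taken singly, VSG passed against Control (adjusted p = 0.082, limma) and Sham did not (0.112). Lifr entered the test through the high-fat mice alone. Since an exact 0 can be a failed estimate, these p-values cannot decide whether Lifr changed. Scd2, a fatty acid desaturase, was the gene that fell. Its region lay 202 bp from the TSS (chr19:44368110-44368626, signals 0.336 and 0.314, 667 bp from a Control peak). Scd2 RNA was 5.50 and 6.49 FPKM in Control, 0.316 and 0.320 in Sham and 0.525 and 1.02 in VSG mice, a log2 difference of -2.20 ± 0.22 (SE, adjusted p = 0.067, limma), with lower RNA in both groups that carried the peak. Sham passed singly (adjusted p = 0.086, limma) and VSG did not (0.140).

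The other 4 called genes had their region between 1 and 10 kb from a TSS. Tmem98, a membrane protein gene, was at 3.47 and 3.06 FPKM in Control, 13.2 and 14.4 in Sham and 12.2 and 10.2 in VSG mice (log2 difference 1.65 ± 0.18, SE, adjusted p = 0.073, limma), and neither group passed singly (0.110 and 0.171). Spryd4, Atg7, which encodes an autophagy enzyme, and Bid, which encodes a pro-apoptotic BCL2 family member, were listed at 0 in both Control mice. Spryd4 was at 18.9 to 23.7 FPKM in the high-fat mice (adjusted p = 0.004, limma), Atg7 at 5.82 to 14.0 (0.073) and Bid at 3.40 to 5.11 (0.066). An exact 0 in this table can be a failed estimate, since Hnf4a and Rxra, which hepatocytes use throughout, were listed at 0 in Sham mouse 1 and at 73.3 and 66.3 FPKM in Sham mouse 2. Counting only genes above 0 in all 6 mice, 4 of the 8 calls remained, Ly6d, Tmem98, Cd36 and Scd2, out of 1431 genes near a region, and 13 of 8208 genes were called in the whole table.

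**Figure D5:**
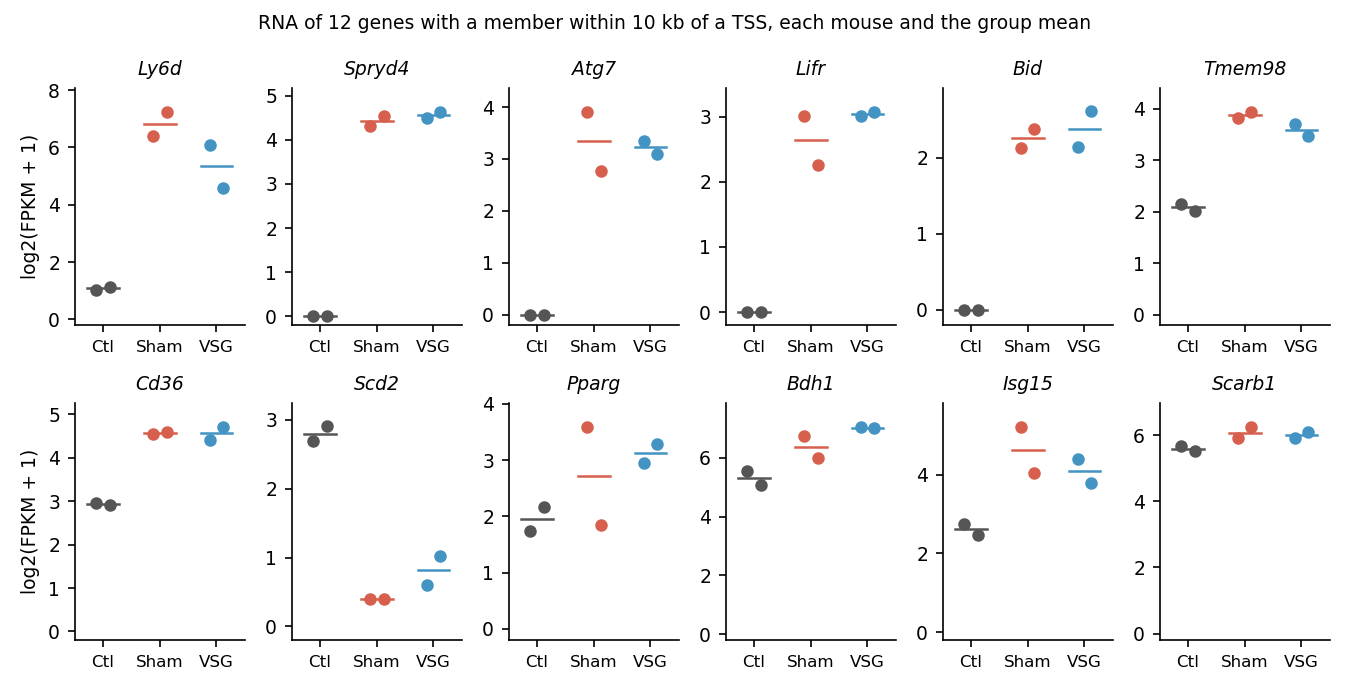
log2(FPKM + 1) of each mouse (points) and the group mean (lines) in Control, Sham and VSG livers for the 8 called genes with a region within 10 kb and for Pparg, Bdh1, Isg15 and Scarb1, picked for display after their values were seen. Each y axis has its own range from about 0. Both Control mice lie below all 4 high-fat mice in every panel but Scd2, where they lie above, and Pparg, where the groups overlap.

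Non-overlap between diets was common among all genes. All 4 high-fat mice lay above both Control mice for 301 of the 1706 genes near a region (17.6%), compared to 17% of all genes tested, and below for 156 (9.14%), compared to 9.23%. Within 1 kb the share above was 21.8% (79 of 362, Wilson interval 17.9 to 26.4) and the share below 10.8%. The median log2 difference of the 1706 genes was 0.07, as it was for all genes tested, and that of the 362 was 0.02. Among genes near Control and Sham regions, which were fewer, 15.9% of 1063 lay above. Near Sham peaks alone the share was 17.3% of 2414 genes (15.9 to 18.9), close to that of the 1706. It was 16.7% of 8689 genes near regions with a peak in every list and 13.9% of 971 near Control and VSG regions.

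Of 29 placed genes in a list of lipid droplet genes and PPARG targets, 9 had a region within 10 kb and 4 within 1 kb of a TSS: Pparg, Cd36, Fitm1 and Aqp7. Of these 9, 7 were tested and Cd36 alone passed. Of all annotated genes, 11.6% had a region within 10 kb and 2.55% within 1 kb, and of those tested with a position 18.2% had one within 10 kb. The counts of this and the following lists stand beside these shares. Pparg had a region 214 bp from a TSS (chr6:115371752-115371987, signals 0.329 and 0.164) and others 54568 and 58441 bp away in introns. Its RNA was 2.34 and 3.50 FPKM in Control, 11.1 and 2.58 in Sham and 6.75 and 8.73 in VSG mice. Sham mouse 2 lay within the Control range, and the difference did not pass (log2 0.96 ± 0.53, SE, adjusted p = 0.534, limma). Cidea, a lipid droplet fusion protein gene with a region 7325 bp from a TSS, was at 0.037 and 0.044 FPKM in Control, 12.9 and 5.30 in Sham and 24.7 and 4.11 in VSG mice. All high-fat mice lay above Control, but with a wide spread (log2 3.31 ± 0.73, SE, adjusted p = 0.248, limma). Fitm1, which promotes droplet formation, was at 29.0 and 26.1 FPKM in Control, 116 and 11.0 in Sham and 87.9 and 51.7 in VSG mice, and overlapped between groups.

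Fatty acid and triglyceride synthesis had 9 of 25 genes with a region within 10 kb, among them Srebf1, Mlxipl, Acly, Acaca, Agpat2, Dgat2 and Scd2, and only Scd2 passed the test. Srebf1, the sterol-regulated activator of lipogenesis, had a region 134 bp from a TSS (chr11:60017294-60018022) and RNA of 7.42 and 6.64 FPKM in Control, 22.9 and 11.4 in Sham and 6.23 and 37.3 in VSG mice, which overlapped. Dgat2, the last enzyme of triglyceride synthesis, was at 203 and 157 FPKM in Control, 105 and 160 in Sham and 157 and 221 in VSG mice. For fatty acid oxidation and PPARA targets the count was 8 of 35, and none of the 7 tested passed. Bdh1, a ketone body dehydrogenase, had a region 577 bp from a TSS (chr16:31429545-31430378) and RNA of 46.1 and 32.6 FPKM in Control, 107 and 62.7 in Sham and 130 and 127 in VSG mice (log2 1.38 ± 0.29, SE, adjusted p = 0.241, limma).

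Cholesterol synthesis and uptake had 9 of 24 genes with a region within 10 kb, and none of the 8 tested passed. Scarb1, the HDL receptor, had a region 608 bp from a TSS and RNA of 49.7 and 44.7 FPKM in Control, 59.0 and 74.8 in Sham and 59.9 and 67.6 in VSG mice (log2 0.46 ± 0.19, SE, adjusted p = 0.451, limma). All 4 high-fat mice lay above both Control mice for Scarb1. Bile acid genes had 5 of 22, with no call among the 4 tested. Nuclear receptors and liver factors, with 11 of 27 (40.7%), had the largest share of the 24 lists and are singled out for that. Among the 11 were Hnf4a, Foxa1, Nr5a2, Rxra and Bcl6. This compares to 11.6% of all annotated genes and 18.2% of those tested, and none of the 10 tested passed. How many list genes lay near other classes of region was not counted. Bcl6, a repressor known from immune cells and sex-biased liver expression, was at 2.61 and 1.57 FPKM in Control, 15.3 and 4.6001 in Sham and 18.03 and 25.7 in VSG mice (adjusted p = 0.246, limma).

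Acute phase genes, made by hepatocytes in inflammation, had 10 of 29 with a region within 10 kb. Orm2, an orosomucoid gene with near-identical copies, was at 178 and 180 FPKM in Control, 4769 and 7138 in Sham and 2248 and 538 in VSG mice, above Control in all 4 but short of the threshold (adjusted p = 0.191, limma). Interferon-stimulated genes had 6 of 27. Isg15, a ubiquitin-like modifier with a region 5 bp from its TSS (chr4:155574799-155575045), was at 5.75 and 4.52 FPKM in Control, 35.8 and 15.4 in Sham and 19.95 and 12.7 in VSG mice (log2 1.74 ± 0.40, SE, adjusted p = 0.259, limma). Ifit1 was at 1.03 and 1.56 FPKM in Control and between 1.98 and 4.99 in the high-fat mice. None of the 5 interferon-stimulated genes tested near a region passed, nor any of the 4 acute phase genes tested there.

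Counts for the remaining lists were as follows. CAR and PXR targets had 6 of 28 genes with a region within 10 kb, glucose and insulin genes 8 of 28, circadian clock genes 4 of 17, endoplasmic reticulum stress genes 2 of 20 and cell cycle genes 3 of 24. Sex-biased liver genes had 6 of 24, immediate early genes 5 of 24, chromatin regulators 4 of 25 and chemokine, cytokine and pattern receptor genes 4 of 34. Of these genes 5, 7, 4, 2 and 1 were tested in the former lists and 6, 5, 4 and 3 in the latter, and none passed.

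Of 60 marker genes of other liver cells, 4 had such a region within 10 kb (6.67%, 2.62 to 15.9), an interval that holds the 11.6% of all annotated genes. A region lay within 10 kb for 0 of 15 Kupffer cell and macrophage markers, 0 of 8 neutrophil markers, 0 of 6 cholangiocyte markers, 1 of 12 stellate, 1 of 10 lymphocyte and 2 of 10 sinusoidal endothelial markers, compared to 3 of 8 hepatocyte markers. None of the tested markers of other liver cells passed in the high-fat comparison with limma. The 12 tested Kupffer cell and macrophage markers summed to 51.4 to 55.4 FPKM in Control and 164 to 250 in high-fat mice, with 5 higher and 0 lower at an unadjusted p under 0.05, where 8.24% and 3.61% of all genes stand. Much of that sum was Spp1, also a cholangiocyte marker, at 28.5 and 29.4 FPKM in Control, 183 and 58.4 in Sham and 143 and 29.2 in VSG mice. Without Spp1 the sum was 22.0 and 27.0 FPKM in Control and between 62.2 and 213 in high-fat mice. For 6 of the 12 all 4 high-fat mice lay above both Control mice, as they did for 17% of all genes, whereas Csf1r was at 1.36 and 2.20 FPKM in Control and 0.875 to 14.0 in high-fat mice, and Clec4f at 3.53 and 5.22 and 2.11 to 48.8, which overlapped. Endothelial markers summed to 24.5 and 55.0 FPKM in Control, 8.91 and 12.1 in Sham and 34.1 and 37.5 in VSG mice, with VSG inside the Control range. Of 9 tested, 0 were higher and 5 lower at an unadjusted p under 0.05, and for 3 all 4 high-fat mice lay below both Control mice, as for 9.23% of all genes. Clec4g alone was at 26.1 and 4.35 FPKM in Control. The 3 tested neutrophil markers summed to 5.33 and 14.0 FPKM in Control, 41.5 and 44.8 in Sham and 16.7 and 21.7 in VSG mice, with 2 higher at an unadjusted p under 0.05. The 8 tested stellate markers summed to 59.4 and 60.9 FPKM in Control, 22.5 and 37.6 in Sham and 63.2 and 88.6 in VSG mice, with 0 at that threshold. Macrophages also express Cd36 and Anxa2, and the part of cell composition in the RNA values and in the regions was not tested.

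Several genes were nearest to many regions. The most, 10, were assigned to 4933407C03Rik, all intronic and more than 10 kb from a TSS, followed by Sh3pxd2a with 9, a podosome adaptor gene, and Arhgef3 with 8. RNA of 4933407C03Rik was 11.4 and 12.1 FPKM in Control, 11.7 and 13.0 in Sham and 11.6 and 13.2 in VSG mice, and that of Sh3pxd2a 1.97 and 1.68, 1.30 and 2.02, and 0.563 and 1.65. Neither differed beyond the spread (adjusted p = 0.903 and 0.754, limma). Kcnk5 and Sept9 had 7 regions each. Apoh, a plasma glycoprotein gene of hepatocytes, had 6 within 100 kb and RNA of 1318 and 1235 FPKM in Control, 1598 and 1027 in Sham and 1701 and 1441 in VSG mice, which overlapped. Dab2ip, a Ras GTPase-activating protein gene, also had 6, of which 5 lay within 10 kb of a TSS, the nearest at 22 bp (chr2:35552102-35552357). Its RNA was low, at 0.604 and 0.750 FPKM in Control, 1.79 and 1.75 in Sham and 0.860 and 2.24 in VSG mice, above Control in all 4 high-fat mice without passing the test (adjusted p = 0.476, limma).

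Among the regions named for their rank, Anxa2 had RNA of 3.55 and 2.93 FPKM in Control, 18.9 and 23.9 in Sham and 31.3 and 13.0 in VSG mice. All 4 high-fat mice lay above both Control mice, with a log2 difference of 2.36 ± 0.38 (SE) that did not pass (adjusted p = 0.190, limma). Slc5a6 was at 4.16 and 0 FPKM in Control, 3.23 and 0 in Sham and 4.90 and 6.84 in VSG mice. Control and Sham overlapped, each with an exact 0 that can be a failed estimate, and both VSG mice lay above them.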

How the data were processed

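FAIRE-seq and RNA-seq were made from 2 livers each of Control, Sham and VSG mice, with groups taken from the labels. The authors aligned FAIRE reads to mm9 with Bowtie, kept unique pairs, removed duplicates and called peaks with F-seq, retaining those reproducible between both mice, so that the deposited signal is an F-seq density per group and carries no error. The authors aligned RNA reads with TopHat2 and the deposited table gives Cufflinks FPKM per RefSeq transcript for each mouse. The paper's methods give ribosomal RNA depletion and the labels poly(A) selection. Versions are not given in the sources used here. Tables of the authors' comparisons (base mean, fold change, p-value) were not used, and the authors' lists of variable sites were used for overlap only.

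Peaks of the 3 lists were merged where they overlapped or touched, and merged regions that held a Sham and a VSG peak and no Control peak were kept. Region centres were placed against GENCODE vM1 (NCBIM37). Shares carry 95% Wilson intervals, which cover counting error only. FPKM was summed per gene over 34046 of 34933 transcripts with a symbol, of which 30344 matched the annotation, and log2(FPKM + 1) was fitted with limma 3.58.1 (R 4.3.3, trend) over all groups, with Benjamini-Hochberg adjustment at an FDR of 10%. Depth was not given, and p-values measure the spread between these mice. Tested on simulated data for the high-fat comparison, the fit recovered 0 of 200 genes changed by 1 on the log2 scale (9383 genes) and 110 of 200 changed by 2 (9395 genes), with 9 unchanged genes called in the latter.

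Motif letters, 22 in all, were searched on both strands with Python 3.11.15 and pysam 0.24.0, and longer motifs may contain shorter ones. Besides those given in the results they were DR4 and IR1 (AGGNCA repeated with 4 bases between, and AGGNCA with its reverse complement after 1 base), CRE (TGACGTCA), SRE (TCACNCCAC), ETS (CCGGAAGT), PU.1 (GAGGAAGT), TEAD (the letters ACATTCC), as well as the motif of the GATA family of factors (the letters AGATAAG), with consensus strings of HNF1, GRE, NRF1 and RORE. HNF1 and NRF1 were not marked in the printed sequences. Copies were counted with BLAST+ 2.17.0+.

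Regions named were the 6 with the highest lower percentile of both lists and those with a DR1 match within 10 kb of a list or called gene, and genes named were called genes, the 8 genes nearest to most regions, list genes with a region within 1 kb and lipid genes with one within 10 kb. Orm2, Bcl6, Hnf4a, Rxra and the genes of rank-named regions were added after their values were seen, as were the regions of variable sites. The regions and gene lists were chosen with earlier results of these data known. Alternatives covered the peak lists, promoter distance, motif window, FPKM filter and pseudocount, transcript summing, centring, trend, replicate block and each mouse left out. Genes above 0 FPKM in all mice, and the CTCF and AP-1 shares, were added after the data were seen. Some named genes and regions that meet these rules are not reported here.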

Additional observations from a re-analysis of the deposited data

How the results depend on the processing

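The number of regions was 2672 with only the more intense 50% of each list, and between 4250 and 6082 under the other ways of taking peaks. The promoter share was 7.89% without regions that had a Control peak within 500 bp, 8.09% with equal numbers of peaks per list, 13.0% with the more intense peaks, 12.0% with peaks of at least 250 bp, and 6.35% or 27.8% with a promoter distance of 500 or 5000 bp. The CTCF share of distal regions was 1.205% with the more intense peaks and 1.08% with equal numbers of peaks. DR1 and AP-1 shares stayed within the intervals given above under the settings run for them.

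Genes called near the regions depended on the mice. Leaving out each mouse in turn gave 0 to 19 calls for both high-fat groups compared to Control, 0 to 45 for Sham and 0 to 5 for VSG, with 0 in all 3 without either Control mouse and the highest Sham count without Sham mouse 2, when 169 of 9518 genes were called in the whole table. Within 1 kb the counts were 4, 2 and 1 of 362 (1.10%, 0.552% and 0.276%, against 0.421%, 0.308% and 0.287% of all genes). With genes above 0 in all mice they were 4 for high-fat and 0 for VSG, of 13 and 5 in the whole table. Without a filter Sham had 8 (of 62 in the whole table), and with a pseudocount of 0.1 or 0.5 Sham had 9 (of 34 and 39) and VSG 5 (of 25 and 32). The cause was not tested. With the replicate block each of the 3 counts was 1, of 9, 9 and 10 in the whole table. Same-numbered mice correlated at 0.105, 0.0592 and 0.0305 in their deviations. The labels tie them by number alone, and whether they shared a day or batch was not tested. No named gene reversed where it was called in the main fit or under the other setting, whereas 79 values of single genes lost their call and 25 gained it. A change of direction was not counted for values called in neither fit. Centring each mouse moved the median log2 difference of all genes from 0.12 to 0.01 for VSG compared to Control.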
